A study of Mus musculus with 20 samples.

Results

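The genes examined here encode the cytosolic ribosomal proteins of the mouse, the protein components of the ribosomes that translate nuclear-encoded mRNAs. Members were the protein-coding genes whose symbol is Rpl or Rps followed by a number and at most the letter a or x, together with Rplp0, Rplp1, Rplp2 and Rpsa. This rule, which uses no measured value, found 76 genes among the 32991 annotated genes of the files, 30 of the small subunit and 46 of the large subunit, and all 76 were present in the files with 428 annotated transcripts.

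Colon RNA was sequenced from 20 male C57BL/6 mice, with 1 library per mouse and 5 mice in each of 4 groups, all gavaged daily for 91 days. Control mice received double distilled water, and PZH mice received Pien Tze Huang, a traditional Chinese medicine formula, at 250 mg/kg a day. AOM/DSS mice, labelled Model, received water plus the colitis-associated cancer protocol, that is 1 intraperitoneal dose of the carcinogen azoxymethane (AOM) at 12.5 mg/kg and 4 cycles of 5 days on 2% dextran sodium sulfate (DSS), which injures the colonic epithelium. PZH + AOM/DSS mice, labelled Model + PZH, received both. No genetic alteration is given for any group, each mouse was in 1 group only, and whole tissue was sampled, so that fewer cells of a type and less RNA per cell cannot be told apart.

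Values were FPKM, fragments per kilobase of transcript scaled to the mapped fragments of each library, summed over the annotated transcripts of each gene. The extraction text in the labels speaks of an abdominal aorta, while the tissue label is colon. In every mouse the 15 colonocyte markers summed to between 2618 and 10224 FPKM, and none of the 15 was at 0 in all mice. The step between low FPKM values gave a depth of 15185000 to 19340000 fragments per library, although only 44.4 to 50.6% of low values lay on that step, so this depth is approximate. Control mice 37 and 50 stood apart in the family studied here, and the main counts and medians that rest on Control mice are also given without them.

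Ribosomal proteins are made in near equal amounts for each ribosome, and their mRNAs are short, abundant and translated together. Their mRNAs typically begin with a 5′ terminal oligopyrimidine tract, a C followed by a run of C and T (U in the RNA), through which the kinase mTOR and the RNA-binding protein LARP1 set translation according to nutrients and growth. In the colon the renewal of crypt epithelium requires continuous ribosome synthesis, which the transcription factor MYC is known to raise. The genes have also left many processed pseudogenes, intronless copies of their mRNAs scattered over the genome.

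The tract was searched at the annotated start in promoter sequences from RefSeq (GRCm38.p6), on the strand of the gene, as a C at the first transcribed base followed by 4 bases that are each C or T. Sequences were at hand for 56 of the 76 members, of which 13 held the tract (23.2%), compared with 3.01% of all 27025 gene symbols in the same sequences. A start annotated a few bases off escapes this search, and its absence says only that these letters were not at that base. Windows of 30 bases are shown for 4 members whose values are described here, with the tract in capitals, 10 bases before the start and 20 from it on.
Rps6, chr4:86857348-86857377, minus strand: gaagtcgggcCTCTTTTTCgtgacgcctcc
Rps10, chr17:27635225-27635254, minus strand: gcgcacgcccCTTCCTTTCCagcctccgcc
Rps18, chr17:33955646-33955675, minus strand: cacttccgctCTCTCTTCCacaggaggcct
Rplp2, chr7:141447641-141447670, plus strand: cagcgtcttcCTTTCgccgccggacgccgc

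Coding stretches of 3 members are shown beside their most abundant matching pseudogene, because the reads of these genes can be placed at either copy. Each stretch is 90 bases, and capitals mark the bases that differ between the pair.
Rpl7a, chr2:26910764-26913318, plus strand, coding bases 142 to 231: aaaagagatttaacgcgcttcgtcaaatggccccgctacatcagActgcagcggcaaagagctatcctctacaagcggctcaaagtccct
Rpl7a-ps11, chrX:166854211-166855011, plus strand: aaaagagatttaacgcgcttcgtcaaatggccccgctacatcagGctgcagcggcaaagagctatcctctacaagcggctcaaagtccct
Rpl21, chr5:146832890-146837032, plus strand, coding bases 313 to 402: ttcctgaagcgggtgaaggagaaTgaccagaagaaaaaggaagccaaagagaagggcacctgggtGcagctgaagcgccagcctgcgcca
Rpl21-ps15, chrX:151215167-151215649, minus strand: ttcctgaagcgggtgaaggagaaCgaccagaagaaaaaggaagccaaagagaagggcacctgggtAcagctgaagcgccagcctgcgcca
Rps27a, chr11:29545846-29548109, minus strand, coding bases 331 to 420: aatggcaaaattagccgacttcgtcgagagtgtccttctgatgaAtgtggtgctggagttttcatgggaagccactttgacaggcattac
Rps27a-ps2, chr9:83409660-83410126, plus strand: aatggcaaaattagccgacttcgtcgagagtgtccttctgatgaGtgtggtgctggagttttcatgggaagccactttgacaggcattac

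Over the whole coding part, Rpl7a and Rpl7a-ps11 differed at 2 of 801 bases, Rpl21 and Rpl21-ps15 at 3 of 483 bases, and Rps27a and Rps27a-ps2 at 5 of 471 bases, unaligned bases included. Coordinates are those of the genes in GENCODE M21 on GRCm38, the build named mm10 in the submitters' notes. Of the 76 members, 69 shared at least 1 exact stretch of 100 bases with an annotated pseudogene present in the files, and the median identity of the coding part with the most abundant such pseudogene was 99.3%. Rpl41, Rpl22, Rpl32, Rps21, Rplp2 and Rps3 were among those that shared none.

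The family was abundant in every mouse. The median Control mean of the members was 594.8 FPKM, compared with 5.11 FPKM for all genes tested. A Control mean of 1000 FPKM or more was reached by 9 members, 62 lay between 100 and 1000 FPKM, and 5 lay below 100 FPKM. The highest were Rplp1 at 2316 ± 538 FPKM (SD, n = 5) and Rplp0 at 1512 ± 300 FPKM, both of the stalk that recruits elongation factors, and Rpl13a at 1244 ± 279 FPKM. The lowest were Rpl7a at 22.6 ± 12.4 FPKM, Rpl21 at 34.95 ± 21.02 FPKM and Rpl29 at 61.7 ± 56.6 FPKM, all proteins of the large subunit. These 3 are also the members with 97.6%, 97.7% and 76.5% of their summed level in matching pseudogenes.

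The members together held between 7.85 and 11.8% of the summed FPKM of annotated genes. Control mice 17, 37, 41, 48 and 50 had 8.52, 11.8, 8.79, 9.36 and 10.8%. PZH mice 8, 14, 27, 46 and 53 had 9.46, 8.16, 8.55, 9.59 and 7.98%. The Control mean was 9.86% ± 1.40 (SD, n = 5), or 8.89% ± 0.433 (n = 3) without mice 37 and 50, and the PZH mean 8.75% ± 0.740.
AOM/DSS mice 23, 30, 33, 44 and 52 had 8.88, 8.21, 8.33, 8.79 and 9.21%, a mean of 8.68% ± 0.413. PZH + AOM/DSS mice 2, 13, 15, 35 and 36 had 9.14, 8.74, 7.85, 10.1 and 7.94%, a mean of 8.75% ± 0.930. All 4 groups overlapped, and the 2 highest mice of the 20 were both Control. No test was made on this sum over the members. The plot of the family share by mouse shows these values.

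**Figure D1:**
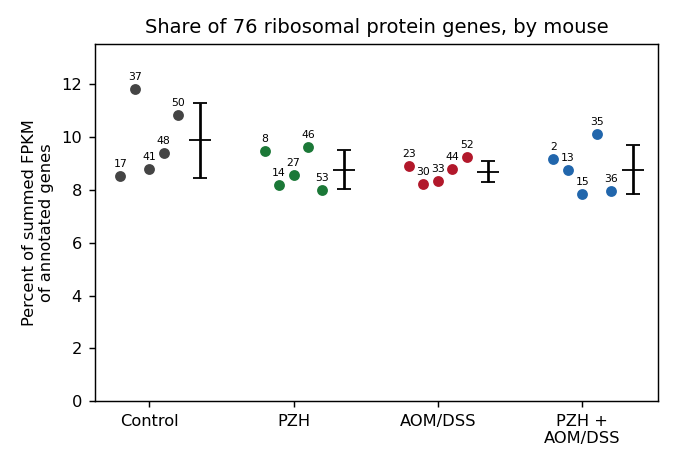
Percent of the summed FPKM of annotated genes held by the 76 ribosomal protein genes, 1 point per mouse with its number, and the mean ± SD of each group of 5 mice. The groups overlap, and Control mice 37 (11.8%) and 50 (10.8%) are the highest of the 20.

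The balance of the subunits varied little. The ratio of summed small-subunit to summed large-subunit FPKM ran from 0.594 to 0.675 over the 20 mice, with group means (SD, n = 5 each) of 0.649 ± 0.0125 for Control, 0.647 ± 0.0259 for PZH mice, 0.626 ± 0.0254 for AOM/DSS mice and 0.654 ± 0.0158 for the mice given both. The members had a median SD over the 20 mice of 0.26 on the log2(FPKM + 1) scale, compared with 0.32 over all 16936 genes tested. Those genes lay far lower in Control (5.11 against 594.8 FPKM), and no genes matched for level were compared. Rpl4 had the smallest SD among members, with values from 806.8 to 1212 FPKM.

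AOM/DSS against Control asks how the cancer protocol changed expression in mice given water. Of the 76 members, 8 were called lower, that is with an adjusted P under 0.05 by limma with Benjamini-Hochberg adjustment over all 15812 genes tested, and 0 were called higher, against 7.23% of all genes called lower and 16.4% called higher. The 8 are 10.5% of the members, a share near that of all genes. At an unadjusted P under 0.05, 21 members were lower and 0 were higher, against 11.8% of all genes lower and 24.2% higher. The median log2 fold change was -0.23 over the members and 0.09 over all genes tested, and 69 of the 76 values were negative. The members called lower were Rpl7a, Rps28, Rpl37a, Rps29, Rps18, Rps10, Rps15 and Rpl9, of which the last 3 lie outside the rule for named genes and are listed to complete the count. The count fell to 2 without AOM/DSS mouse 44, leaving Rpl7a and Rps10, with 807 of 15426 genes then called lower. It rose to 17 when libraries were scaled by the median of ratios. That scaling moved the median of all genes from 0.09 to 0.0069 (log2). It also moved the split of all calls from 2596 higher and 1143 lower to 1936 and 1587.

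Rps28, a small protein of the small subunit, had 252, 569, 372, 329 and 692.9 FPKM in the Control mice, listed here and below in the order of mice 17, 37, 41, 48 and 50. It had 238, 217, 225, 208 and 233 FPKM in the AOM/DSS mice, in the order of mice 23, 30, 33, 44 and 52. The groups did not overlap, and Control mice 37 and 50 were the highest. Its log2 fold change was -0.89 (SE 0.240, adjusted P = 0.0223 by limma).

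Rpl37a, a zinc-finger protein of the large subunit, had 476, 920, 578, 581 and 922 FPKM in Control mice and 424, 401, 353, 426 and 476 FPKM in AOM/DSS mice. The groups touched at Control mouse 17 and AOM/DSS mouse 52, and Control mice 37 and 50 were again the highest. Its log2 fold change was -0.69 (SE 0.192, adjusted P = 0.0248 by limma).

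Rps29, a zinc-finger protein of the small-subunit head and a frequent qPCR reference, had 488, 930, 565, 581 and 1056 FPKM in Control mice and 441, 430, 463, 441 and 464 FPKM in AOM/DSS mice. The groups did not overlap, and the AOM/DSS mice lay within a narrow range. Its log2 fold change was -0.63 (SE 0.203, adjusted P = 0.0474 by limma), and with matching pseudogenes added it was -0.60 (adjusted P = 0.0506).

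Rps18, which lies in the small-subunit head near the decoding site and is also used as a qPCR reference, had 861, 1240, 747, 866 and 960 FPKM in Control mice and 774, 659, 651, 606 and 512 FPKM in AOM/DSS mice. AOM/DSS mouse 23 lay above the lowest Control mouse, and the other 4 lay below all Control mice. Its log2 fold change was -0.54 (SE 0.155, adjusted P = 0.0299 by limma).

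Rps10, another protein of the small-subunit head, had 670, 757, 614, 661 and 676 FPKM in Control mice and 533, 361, 513, 434 and 510 FPKM in AOM/DSS mice. The groups did not overlap, and the Control mice were close to each other. The log2 fold change was -0.53 (SE 0.124, adjusted P = 0.0111 by limma). Rps15, a protein of the head near the mRNA, had 756, 1273, 793, 868 and 969 FPKM in Control mice and 707, 652, 670, 568 and 580 FPKM in AOM/DSS mice. Rpl9, a large-subunit protein, had 660, 939, 716, 707 and 795 FPKM in Control mice and 570, 548, 573, 517 and 598 FPKM in AOM/DSS mice. Neither gene had overlapping groups, and their log2 fold changes were -0.53 (adjusted P = 0.0260) and -0.43 (adjusted P = 0.0179). In all, 6 of 76 members had groups that did not overlap, against 18.4% of all genes tested.

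Rpl7a, which encodes a large-subunit protein, had the largest fall among members, with 8.13, 35.2, 23.01, 34.5 and 12.4 FPKM in Control mice and 0.936, 2.32, 9.68, 3.70 and 1.56 FPKM in AOM/DSS mice. Its log2 fold change was -2.43 (SE 0.507, adjusted P = 0.00644 by limma). These values are low for a gene of this family, and 97.6% of the summed level lay in its matching pseudogenes. With those added, Rpl7a had 674, 979, 659, 751 and 871 FPKM in Control mice and 665, 561, 758, 623 and 489 FPKM in AOM/DSS mice. The groups overlapped, as they did for the gene alone at AOM/DSS mouse 33 and Control mouse 17. The log2 fold change with pseudogenes was -0.34 (95% interval -0.68 to -0.0080, adjusted P = 0.130 by limma). With pseudogenes added to every member, 6 of 76 were called lower, against 7.22% of all genes.

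**Figure D2:**
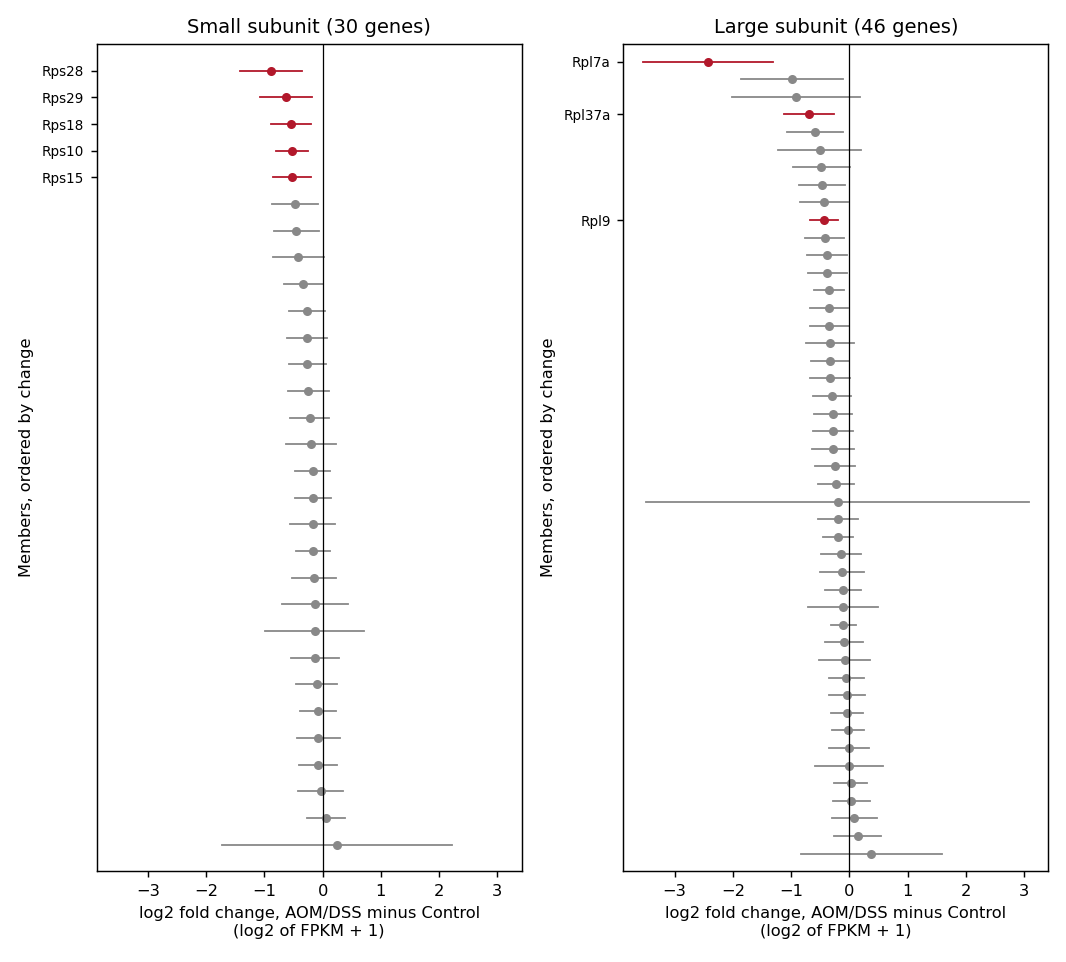
Log2 fold change of each of the 76 members in AOM/DSS against Control mice (5 mice each), with 95% intervals from limma, for the small subunit (left) and the large subunit (right). The 8 members called lower are in red with their names and the other 68 in grey, and 69 of the 76 points lie below 0.

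The other members were not called. Of the stalk genes, Rplp0 had 1395, 2030, 1252, 1433 and 1451 FPKM in Control mice and 1488, 1348, 1396, 1391 and 1580 FPKM in AOM/DSS mice, with a log2 difference of -0.05 (95% interval -0.36 to 0.25). Rplp1 had 1893, 3032, 1885, 2018 and 2753 FPKM in Control mice and 1886, 1701, 1817, 1862 and 2132 FPKM in AOM/DSS mice. In both genes Control mouse 37 was the highest and the groups overlapped. The log2 differences were -0.28 for Rplp1, -0.35 for Rplp2, which ran from 252 to 275 FPKM in AOM/DSS mice and from 249.7 to 437 FPKM in Control mice, and -0.04 for Rpl12, which binds beside the stalk. Of the genes of the 5S ribonucleoprotein, which can bind MDM2 and so link ribosome assembly to p53, Rpl5 had 305, 469.6, 303, 294 and 238 FPKM in Control mice and 329, 276, 315, 345 and 419 FPKM in AOM/DSS mice. Its log2 difference was 0.09 (95% interval -0.30 to 0.48). Rpl11 had 550.5, 732, 473, 562 and 748 FPKM in Control mice and 571, 430.1, 454, 501 and 514 FPKM in AOM/DSS mice, with a difference of -0.30 (95% interval -0.62 to 0.03).

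Rps6, the target of the S6 kinases, had 1037, 1454, 936, 1031 and 1058 FPKM in Control mice and 1098, 933, 1012, 869 and 979 FPKM in AOM/DSS mice, with a log2 difference of -0.16 (95% interval -0.46 to 0.13). Rpsa, whose protein is also known as the laminin receptor precursor, had 622, 924, 560, 637 and 590 FPKM in Control mice and 729, 573, 706, 671 and 758 FPKM in AOM/DSS mice, a difference of 0.06 (95% interval -0.26 to 0.39). In both genes Control mouse 37 was the highest of all. Among genes often used as qPCR references, Rpl13a had 1183, 1686, 949, 1098 and 1304 FPKM in Control mice and 1217, 1025, 1001, 1165 and 1123 FPKM in AOM/DSS mice. Rpl19 had 854, 1198, 688, 813 and 880.4 FPKM in Control mice and 847, 749, 812, 754 and 885 FPKM in AOM/DSS mice. Rpl32 had 904, 1551, 958, 1018 and 1255 FPKM in Control mice and 917, 778, 891, 861 and 986 FPKM in AOM/DSS mice. The log2 differences of these 3 genes were -0.15, -0.11 and -0.33, and none was called, while Rps18 and Rps29 were. Over all members, 65 of 76 had a 95% interval that lay within a 2-fold change in either direction.

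The shorter members tended to have the lower log2 fold changes, although the lowest belonged to Rpl7a, of 801 coding nucleotides. Coding length ran from 78 to 1260 nucleotides, and across the 76 members its correlation with the log2 fold change was 0.49 by Spearman and 0.20 by Pearson, or 0.55 by each with pseudogenes added. These genes share the same 10 libraries and are not independent. The 18 members of at most 360 coding nucleotides had a median log2 fold change of -0.38, and the 21 of at least 600 one of -0.08. Other protein-coding genes at 50 FPKM or more had a median of -0.28 for the 123 with a transcript under 700 nucleotides and -0.03 for the 235 with one of 3000 nucleotides or more.

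Control mice 37 and 50 moved with this difference. Control mouse 37 was the highest of all 20 mice in 59 of 76 members, and among Control mice it or mouse 50 was the highest in 62 and 9 members. On the log2 scale, the short members lay above their 20-mouse median by 0.79 in Control mouse 37 and by 0.59 in Control mouse 50, and the long members by 0.52 and 0.05. In mouse 37 the other short genes were also higher, by 0.56, while the genes of 3000 nucleotides or more gave -0.15. In mouse 50 these values were 0.17 and -0.04, and in PZH mouse 46 they were 0.26 and 0.02, so mouse 50 was not set apart by them.

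**Figure D3:**
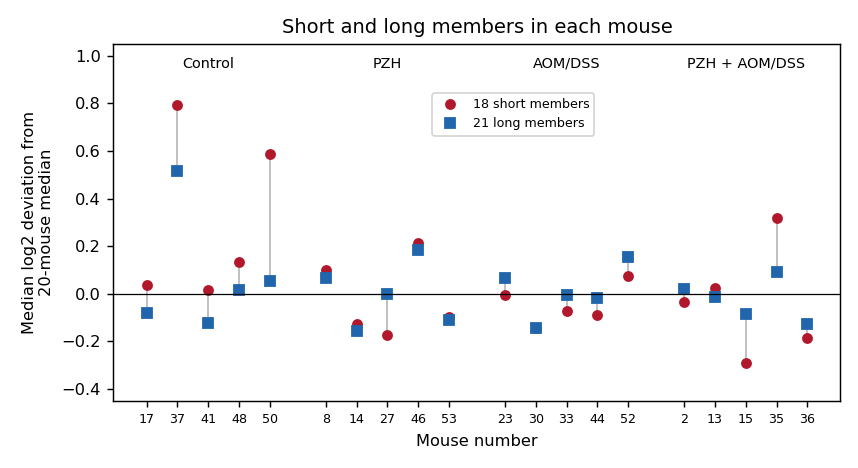
Median log2 deviation of the 18 short members (at most 360 coding nucleotides, circles) and 21 long members (at least 600, squares) from each gene's median over 20 mice, by mouse. Short members lie at 0.79 in Control mouse 37 and 0.59 in Control mouse 50.

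The gap between short and long members was not limited to these mice. It was 0.12, 0.28, 0.14, 0.12 and 0.53 in the Control mice, between -0.17 and 0.03 in PZH mice and between -0.08 and 0.00024 in AOM/DSS mice. All 5 Control mice thus lay above all PZH and AOM/DSS mice in this gap, which was examined after the values were seen and was not tested. PZH + AOM/DSS mice ranged from -0.20 to 0.23 and overlapped the Control mice.

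Without Control mice 37 and 50, 4 members were called lower, namely Rpl7a, Rps28, Rps10 and Rpl9, against 4.88% of all genes, and the median of the members was -0.05. The short members then had a median of -0.13 and the long members one of 0.06, and the Spearman correlation with coding length was 0.37. Control mouse 50 also held the highest summed level of the 9 smooth muscle markers, 6291 FPKM against 2673 to 3420 FPKM in the other Control mice, and 288.9 FPKM of the 8 squamous epithelium markers. Control mouse 17 held 346.7 FPKM of squamous markers, and the other 3 Control mice held at most 1.65 FPKM. The part of these markers in the family's level was not tested.

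**Figure D4:**
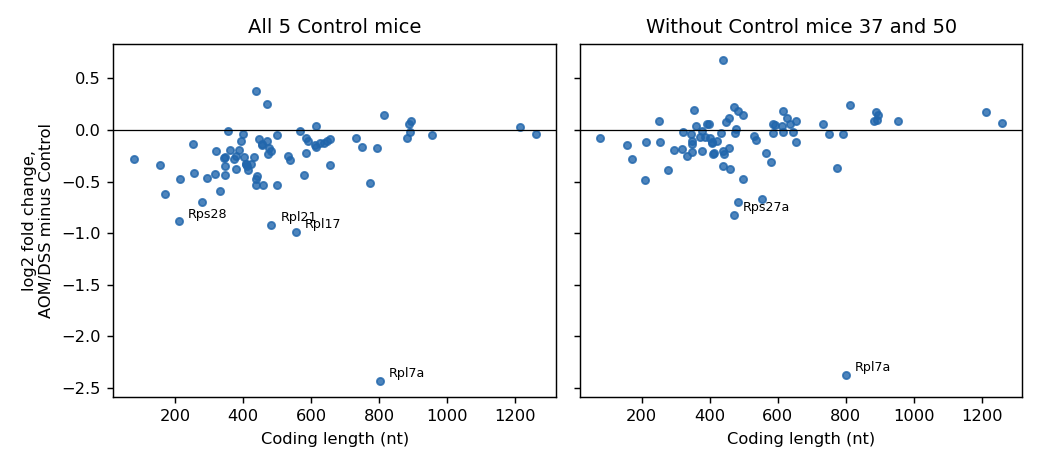
Coding length of each of the 76 members in nucleotides against its log2 fold change in AOM/DSS against Control mice, with all 5 Control mice (left, Spearman 0.49) and without Control mice 37 and 50 (right, Spearman 0.37). On the left the 18 members of at most 360 nucleotides have a median of -0.38 and the 21 of at least 600 one of -0.08, and Rpl7a lies lowest in both panels.

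Relative to the family, that is with each mouse shifted to the same median over the members, 7 members were called higher and 3 lower in AOM/DSS mice, against 31.9% and 2.06% of all genes. The higher members were Rpl15, Rpsa, Rpl3, Rpl7, Rpl34, Rpl6 and Rpl12, and the lower ones Rpl7a, Rps28 and Rpl37a. Rpsa had a log2 difference of 0.36 on this scale and Rpl12 one of 0.26, while Rps28 had -0.58. This scaling moved the median of all genes from 0.09 to 0.40 (log2), so that these values only rank the members against each other.

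Cytosolic ribosomal proteins whose symbols lie outside the rule were also examined. Fau, which encodes a ubiquitin-like fusion to a small-subunit protein, had 772, 1436, 849, 916 and 1037 FPKM in Control mice and 578, 591, 562, 670 and 793 FPKM in AOM/DSS mice. The groups overlapped at 1 mouse each, and its log2 fold change was -0.63 (adjusted P = 0.0251 by limma). With Control mice 37 and 50 left out it was -0.41 (adjusted P = 0.0678), so that the call was lost. Rps3a1, of the small subunit, gave -0.15 (adjusted P = 0.434) and Rack1, a scaffold on the small subunit, -0.10 (adjusted P = 0.679). Of 8 tested paralogs and near copies of members, only Rps4l was called, falling from 8.65 ± 2.92 FPKM (SD, n = 5) to 4.46 ± 0.468 FPKM. Of 78 mitochondrial ribosomal protein genes, which encode the ribosomes of the organelle, 4 were called lower and 0 higher, with a median of -0.09, against 7.23% of all genes lower and 16.4% higher. The counts without Control mice 37 and 50 were 3 lower and 0 higher, against 4.88% and 13.8% of all genes. Mrpl14 fell by 0.84 and Mrpl9 fell by 0.44 on the log2 scale.

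Ribosome biogenesis factors process rRNA and assemble the subunits. Of 95 ribosome biogenesis genes, 39 were called higher and 0 lower in AOM/DSS mice, with a median log2 fold change of 0.37, against 16.4% of all genes called higher and 7.23% lower. Ddx21, an RNA helicase of the nucleolus, had 24.5 ± 2.39 FPKM in Control and 40.8 ± 3.02 FPKM in AOM/DSS mice, or 0.71 higher on the log2 scale (adjusted P = 0.000488 by limma). Wdr75, which acts in early processing of the small-subunit rRNA, had 11.0 ± 0.782 and 19.0 ± 1.90 FPKM, a change of 0.73 (adjusted P = 0.000592 by limma). With median-of-ratios scaling 24 of the 95 were called higher and 0 lower, against 12.3% and 10.1% of all genes. Without Control mice 37 and 50 the counts were also 24 and 0, against 13.8% and 4.88% of all genes. The difference between this list and the members was not tested.

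Of 57 tested translation factors, 9 were called higher and 2 lower, against 16.4% higher and 7.23% lower of all genes. The split became 5 and 5 with median-of-ratios scaling, against 12.3% higher and 10.1% lower of all genes. It was 7 and 2 without Control mice 37 and 50. Without those mice 13.8% of all genes were called higher and 4.88% lower, also beside the regulators and hosts below. Pabpc1, the cytoplasmic poly(A)-binding protein, gave 0.97 (adjusted P = 0.00295) and Eif1a, an initiation factor, 0.60 (adjusted P = 0.00308). Of 25 tested regulators around MYC, mTOR and ribosome surveillance, 3 were called higher and 0 lower (2 and 1 without Control mice 37 and 50), including Zfp598, a sensor of collided ribosomes, at 1.26 (adjusted P = 0.00186) and Mycn at 0.84 (adjusted P = 0.0109). Myc had 14.7 ± 5.42 FPKM in Control and 22.99 ± 4.17 FPKM in AOM/DSS mice, a log2 difference of 0.67 (adjusted P = 0.0584 by limma). Of 14 tested hosts of small nucleolar RNAs, Snhg5 was called higher and Snhg18 lower. Without those Control mice 3 hosts were called higher and 0 lower, Snhg18 having an adjusted P of 0.102 by limma.

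Marker RNAs of several cell types moved with the same comparison. All 9 smooth muscle markers and 8 of 14 tested colonocyte markers were called lower in AOM/DSS mice, against 7.23% of all genes. Called higher were all 8 Paneth, 6 of 6 tested neutrophil, 7 of 8 tested crypt base and 7 of 20 proliferation markers, against 16.4%. Also higher were 6 of 10 myeloid, 4 of 7 endothelial, 2 of 9 goblet and 1 of 5 blood markers. Of lymphoid markers, 5 of 9 of T and NK cells and 4 of 10 of B and plasma cells were higher. Fibroblast markers were split into 2 higher and 2 lower of 8, and neuron and glia markers into 1 higher and 4 lower of 9. None of 5 tested squamous markers was called. Genes were tested if they reached 0.5 FPKM in 5 or more of the mice compared. A marker nearly absent in Control thus enters only where AOM/DSS mice are high, and can then hardly be called lower. In PZH against Control, 4 of 8 Paneth and 3 of 7 neutrophil markers passed this filter, against 8 and 6 in AOM/DSS against Control. The Paneth and neutrophil counts, here and below, may therefore be partly set by the filter. Summed smooth muscle markers ran from 2673 to 6291 FPKM in Control and from 1149 to 2045 FPKM in AOM/DSS mice, and summed Paneth markers from 12.7 to 65.7 and from 1672 to 5853 FPKM. Without Control mice 37 and 50, 8 of 9 smooth muscle and 7 of 14 colonocyte markers were called lower, against 4.88% of all genes. Called higher were 8 of 8 Paneth, 6 of 6 neutrophil, 5 of 8 crypt base and 10 of 20 proliferation markers, against 13.8%. So were 8 of 10 myeloid, 4 of 7 endothelial and 1 of 9 goblet markers. T and NK cells had 4 of 8 higher, and B and plasma cells 7 of 10. In fibroblast markers 1 of 8 was higher, in neuron and glia markers 1 of 6, and 0 were lower in either. No squamous or blood marker was called. The part of these marker levels in the members' values was not tested.

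PZH against Control asks what the drug did without the cancer protocol. None of 76 members was called (0 by limma), against 0.00645% of all 15506 genes tested, that is 1 gene. At an unadjusted P under 0.05, 12 members were lower and 0 were higher, against 4.5% of all genes lower and 4.34% higher. The median log2 difference was -0.22 over the members and 0.0065 over all genes, and 73 of 76 values were negative. Without Control mice 37 and 50 the median was -0.03 and 2 of 76 members had an unadjusted P under 0.05. In that fit 1048 of all 15105 genes did, in either direction. This comparison shares its Control mice with the one above. Summed smooth muscle markers ran from 1299 to 2863 FPKM in PZH mice, against 2673 to 6291 FPKM in Control mice. Their part in the members' values was not tested.

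Rpl17, at the rim of the exit tunnel, had the smallest P here, with 430, 658, 159, 428 and 437 FPKM in Control mice and 173, 159, 196, 149 and 125 FPKM in PZH mice, in the order of mice 8, 14, 27, 46 and 53. Control mouse 41 lay among the PZH mice, and without it Rpl17 was called lower, at -1.59 (adjusted P = 0.0272 by limma). The log2 difference was -1.27 (adjusted P = 0.428 by limma), and 78.8% of the summed level of Rpl17 lay in matching pseudogenes. With those added the difference was -0.12 (95% interval -0.41 to 0.17). Rpl31, also of the tunnel rim, gave -0.44 and Rps10 -0.30 (adjusted P = 0.533 each by limma), and Rps10 was the 1 member whose groups did not overlap, against 1.81% of all genes.

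PZH + AOM/DSS against AOM/DSS asks what the drug did within the cancer protocol. None of 76 members was called by limma, against 0.00629% of 15888 genes, 1 member was higher at an unadjusted P under 0.05, against 3.51% of all genes higher and 8.21% lower, and the median log2 difference was -0.0047 over the members and -0.04 over all genes. The values were split into 37 positive and 39 negative, and 68 members had a 95% interval within a 2-fold change in either direction. No member had groups that did not overlap, against 1.08% of all genes. PZH + AOM/DSS mouse 35 stood apart in this group. Without it 119 genes were called higher and 689 lower, and still no member was called. When fitted with all 20 mice, 4 genes were called higher and 85 lower, again with no member.

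The smallest P belonged to Rpl7a, with 5.72, 37.1, 2.59, 41.8 and 8.36 FPKM in PZH + AOM/DSS mice, in the order of mice 2, 13, 15, 35 and 36, and a log2 difference of 1.76 (adjusted P = 0.394 by limma). With pseudogenes added the difference was 0.17 (95% interval -0.18 to 0.51). Rpl21 gave 1.01 (adjusted P = 0.454), which became -0.06 with pseudogenes added, and Rpl36a gave -0.41 (adjusted P = 0.473). Rpl36a ran from 382 to 469 FPKM in AOM/DSS mice and from 191 to 455 FPKM in PZH + AOM/DSS mice.

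The 1 gene called with the 10 mice of this comparison was Eef1a1, which is no ribosomal protein but the elongation factor that delivers aminoacyl-tRNA to the ribosome, and whose mRNA also carries an oligopyrimidine tract. It had 1443, 1063, 1126, 1055 and 1071 FPKM in AOM/DSS mice and 3083, 3108, 2694, 2958 and 2994 FPKM in PZH + AOM/DSS mice, or 1.37 higher on the log2 scale (SE 0.122, adjusted P = 0.00481 by limma). The groups lay far apart, but Control mouse 17 at 2460 FPKM and PZH mice 27 and 53 at 2778 and 2799 FPKM lay near the higher level, and the other Control and PZH mice between 1187 and 1592 FPKM. With its 6 matching pseudogenes added the change was 1.34 (adjusted P = 0.00405).

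PZH + AOM/DSS against PZH compares the protocol within drug-treated mice and shares no mouse with AOM/DSS against Control. None of 76 members was called by limma, against 1.74% of 15636 genes called higher and 0.678% called lower (2.42% in all), and at an unadjusted P under 0.05 there was 1 member higher and 1 lower, against 13% of all genes higher and 7.89% lower. The median log2 difference was -0.02, beside 0.04 over all genes. No member had groups that did not overlap, against 7.37% of all genes. For the 8 members called lower in AOM/DSS against Control, the values here were -0.75 for Rpl7a, -0.30 for Rps10, -0.22 for Rps28, -0.21 for Rpl9, -0.20 for Rps15, -0.19 for Rps29, -0.02 for Rps18 and 0.06 for Rpl37a. Of these 8, 7 were negative, beside 41 of all 76 members. Of the 95 ribosome biogenesis genes, 3 were called higher and 0 lower here, with a median of 0.26.

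Rps27a, whose protein is made as a fusion with ubiquitin, had the smallest P, with 5.31, 28.6, 55.5, 37.6 and 29.5 FPKM in PZH mice and 520.4, 399, 149, 48.6 and 80.5 FPKM in PZH + AOM/DSS mice. The log2 difference was 2.66 (SE 0.732, adjusted P = 0.0810 by limma). With pseudogenes added the PZH mice ran from 317 to 466 FPKM and the PZH + AOM/DSS mice from 442 to 620 FPKM, a difference of 0.43 (95% interval 0.12 to 0.75, adjusted P = 0.123). Rpl8, a large-subunit protein near the peptidyl transferase centre, gave -0.45 (adjusted P = 0.219 by limma).

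The interaction tests whether the effect of PZH differed between mice with and without the protocol. None of 76 members was called by limma, against 0.0059% of 16936 genes called in each direction (0.0118% in all), and 8 members were positive and 0 negative at an unadjusted P under 0.05, against 3.41% of all genes positive and 6.92% negative. The median was 0.22 over the members and -0.05 over all genes, with 71 positive values. Rpl37a had the smallest P at 0.75 (95% interval 0.25 to 1.25, adjusted P = 0.358), followed by Rpl27 at 0.54 and Rps27 at 0.94. Without Control mice 37 and 50 the median was 0.03 and 2 of 76 members had an unadjusted P under 0.05. In that fit 1559 of all 16792 genes did, in either direction.

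A few members varied far more between mice than the rest. An SD above 0.7 on the log2 scale over 20 mice was found in 7, namely Rpl29, Rps27a, Rpl7a, Rpl21, Rpl26, Rpl18 and Rpl17. Rpl29 had 0.492, 18.3, 53.9, 138 and 98.1 FPKM in Control mice, and over all mice it ran from 0.492 to 169 FPKM, a 343-fold range. Rps27a ran from 5.31 to 520.4 FPKM, a 97.99-fold range. In both genes mice of the same group lay far apart, and in AOM/DSS against Control their intervals ran from -3.49 to 3.09 and from -1.72 to 2.22.

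With matching pseudogenes added, none of the 76 had an SD above 0.7. Rpl29 then ran from 144 to 353 FPKM (2.45-fold), Rps27a from 317 to 644 FPKM (2.03-fold), Rpl7a from 489 to 1005 FPKM (2.05-fold), Rpl21 from 865 to 1740 FPKM (2.01-fold) and Rpl17 from 1026 to 1675 FPKM (1.63-fold). Rpl26 and Rpl18 stayed wide at 4.77-fold and 8.002-fold. These sums add FPKM of sequences of unlike length and are per-length sums, not read totals. In all, 7 members, namely Rpl21, Rpl7a, Rpl17, Rpl29, Rps27a, Rpl35a and Rpl23, had over 50% of their summed level in pseudogenes, and their FPKM alone is an uncertain measure of the gene.

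**Figure D5:**
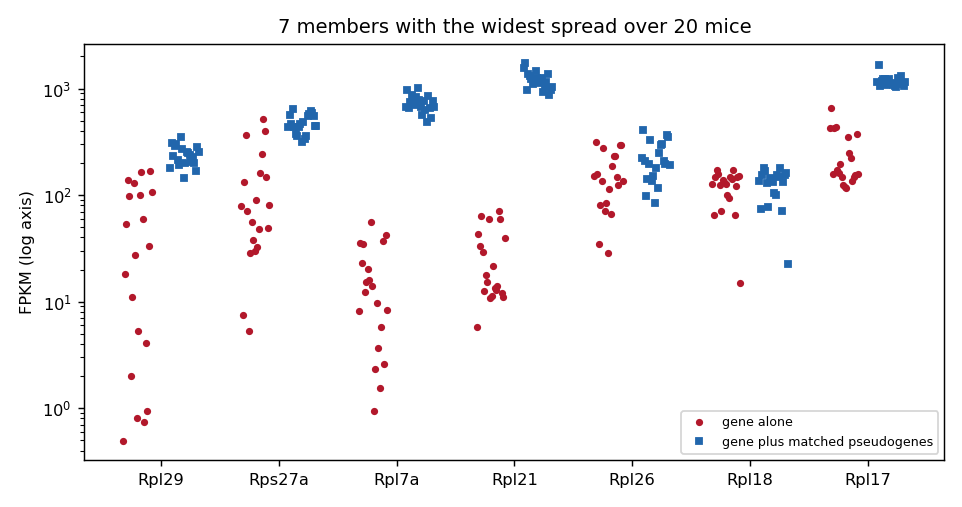
FPKM (log axis) in each of 20 mice for the 7 members with an SD above 0.7 on the log2 scale, for the gene alone (red circles) and with its matching pseudogenes added (blue squares). Rpl29 spans 0.492 to 169 FPKM alone and 144 to 353 FPKM with pseudogenes.

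A step, that is a gap above 1 between neighbouring sorted log2 values, was found in Rpl18 and elsewhere. Rpl18, a large-subunit protein, had 14.9 FPKM in PZH + AOM/DSS mouse 36 and at least 64.6 FPKM in the other mice. Rps27a, described above, also had one.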

How the data were processed

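The deposited values are FPKM per transcript, 1 table per mouse, which the authors made with HISAT2 and StringTie on mm10. Ribosomal RNA had been depleted, and the paper also describes a poly(A) isolation step. Per the labels limma was among their tools, while the paper names DESeq for its transcript tests. Reads had been filtered with NGSQC, and the study's own transcript tests were not used. Each table holds 118434 transcripts, of which 22252 were assembled by the authors and name no gene. These held 12.1 to 14.8% of FPKM and were not used. FPKM of the other transcripts was summed per gene with GENCODE M21 (96032 transcripts matched), which normalizes for depth and length but leaves reads shared with pseudogenes where the authors' assignment put them.

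Differences were tested with limma 3.58.1 (R 4.3.3, trend) on log2(FPKM + 1) for genes reaching 0.5 FPKM in 5 or more of the mice compared, with Benjamini-Hochberg adjustment over all genes tested. A fold change on this scale understates the change of low genes. The code was tested on simulated data. Whether the mice of a group shared a cage or a processing day is not given. Members and lists were chosen with earlier results of these data known. Named were, in each comparison, the 5 largest rises and falls among the members called, or where fewer than 3 were called the 3 with the smallest P. Also named were a fixed set of stalk, 5S particle, reference and other genes, the 3 highest and 3 lowest in Control, members with a step, and Eef1a1, Myc and the 2 smallest P of each other list. Exact matches of 100 bases linked members to pseudogenes, an alternative chosen after seeing the data, and coding parts were aligned with Biopython 1.88. Single values of a few genes that meet this rule are not reported here.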

Additional observations from a re-analysis of the deposited data

Results flagged for a closer look

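In groups of 5 mice, a mouse was marked where its gap to the nearest other mouse took up more than 0.71 of the group's range (Dixon's test). Of 120 such checks on named genes and family measures 12 were marked, where chance marks about 1 in 20 (6 of them). In Control, Rplp0 at 2030 FPKM, Rps6 at 1454 FPKM and Rpsa at 924 FPKM were high, all in mouse 37. In PZH, mouse 46 was high in Rpl21 (59.3 FPKM) and Rpl7a (55.8 FPKM), mouse 27 was high in Rpl29 (129 FPKM) and low in the gap between short and long members (-0.17), and mouse 14 was low in Rpl18 (70.4 FPKM). In AOM/DSS, mouse 30 was high in Rpl21 (21.4 FPKM) and in the gap between short and long members (0.00024), and mouse 33 was low in Rpl8 (228 FPKM). In PZH + AOM/DSS, mouse 35 was high in Rpl17 (372 FPKM). Rpl21, Rpl7a, Rpl29 and Rpl17 each had over 76% of their summed level in matching pseudogenes.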

How the results depend on the processing

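No paired analysis was possible because no mouse number occurs in more than 1 group. In AOM/DSS against Control the 8 members called lower became 17 with median-of-ratios scaling (all 8 among them, beside 10.1% of all genes lower and 12.3% higher), 4 without a filter on low values, and 3 lower with 7 higher relative to the family median. Fitting all 20 mice gave 12, with 7 of the 8 among them and Rps18 lost. Of all genes, 1028 of 31007 were called lower without a filter and 1264 of 15812 with all 20 mice. Relative to the family median 2.06% of all genes were called lower and 31.9% higher. Of alternatives chosen after seeing the data, adding pseudogenes gave 6, with Rpl7a and Rps29 lost, and leaving out Control mice 37 and 50 gave 4. In these fits 7.22% and 4.88% of all genes were called lower, in that order. Leaving out 1 mouse gave 2 to 12 members called lower. The count was 2 without AOM/DSS mouse 44, 4 without Control mouse 50, 5 without AOM/DSS mouse 33 or 52, and 12 without Control mouse 17. Beside these, 807 of 15426, 907 of 15582, 923 of 15423, 834 of 15430 and 1038 of 15635 genes were called lower, in that order. Rpl7a and Rps10 were called in every fit that left out 1 mouse. In PZH against Control leaving out 1 mouse gave 0 to 1, the 1 without Control mouse 41, where 2 of 15293 genes were called lower. No alternative called a member in the other 3 comparisons.

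The members' median became 0.074, 0.044 and -0.081 relative to the family median for AOM/DSS against Control, PZH against Control and the interaction, and -0.029 and 0.027 for the last 2 without Control mice 37 and 50. The family share rose with protein-coding transcripts only to 11.4% (Control), 10.1% (PZH), 10.3% (AOM/DSS) and 10.3% (both). With nuclear protein-coding genes as the denominator it was 12.5, 11.0, 11.0 and 11.2%. The Control mean stayed the highest with mice 37 and 50 included. Control mice 17, 41 and 48 had 9.79, 10.1 and 10.8% on the first measure and 11.0, 11.0 and 11.8% on the second.

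The single genes that changed sign in AOM/DSS against Control, none of them called, were several. Relative to the family median they were Rplp0 (0.25), Rplp1 (0.026), Rpl12 (0.26, called there), Rpl11 (0.0056), Rps6 (0.14), Rpl13a (0.16), Rpl19 (0.19), Rpl29 (0.10) and Rpl18 (0.29). Without Control mice 37 and 50 they were Rplp0 (0.083), Rpl12 (0.14), Rpl13a (0.041), Rpl19 (0.047), Rpl29 (0.18) and Rps27a (-0.82). Median-of-ratios scaling turned Rpl5 (-0.026) and Rpsa (-0.052), protein-coding transcripts only turned Rps27a (-0.075) and Rpl18 (0.10), and added pseudogenes turned Rps27a (-0.15) and, in PZH + AOM/DSS against AOM/DSS, Rpl21 (-0.063). Leaving out 1 mouse, ranges crossed 0 for Rplp0 (-0.11 to 0.059), Rpl12 (-0.12 to 0.064), Rpl5 (-0.011 to 0.23), Rps27a (-0.53 to 0.82), Rpl19 (-0.20 to 0.0043), Rpl29 (-1.28 to 0.77) and Rpl18 (-0.24 to 0.10). The cause of these changes was not tested. FPKM without counts gives no counting interval.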
